A study of Saccharomyces cerevisiae with 10 samples.

Results

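The genes described here take up sulphate, reduce it and build it into methionine, cysteine and S-adenosylmethionine in budding yeast, Saccharomyces cerevisiae. They were chosen by symbol from a list of 35 genes, and all 35 of 35 were found among the 6377 features on the arrays. The list comprised the sulphate transporters SUL1 and SUL2, the sulphate activation and reduction genes MET3, MET14, MET16 and MET22, and the sulphite reductase and sirohaem genes MET5, MET10, MET1 and MET8. It further held MET2 and MET17 for homocysteine synthesis, STR2, STR3, CYS3 and CYS4 for transsulphuration, MET6, MET7, MET12 and MET13 for methionine synthesis and folate, and SAM1, SAM2, SAH1, SAM4 and MHT1 for the methyl cycle. The permeases MUP1, MUP3, MMP1 and SAM3 and the regulators MET4, MET28, CBF1, MET31, MET32 and MET30 completed it. These RNAs were followed across 5 strains with changes in NuA4, the complex that acetylates histones H4 and H2A.

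Each strain was hybridised on 2 two-colour arrays, called replicates a and b, against a common reference pool. Tagged Epl1 had FLAG-tagged Epl1, and its label mentions no truncation. Epl1 1:380 and Epl1 1:485 carried FLAG-tagged Epl1 truncated as their labels state, and tagged Epl1 served as the control of both. Eaf1 1:982 carried HA-tagged Eaf1, which the label calls a C-terminal truncation, and it served as the control of the eaf1 deletion. The labels do not give the length of Eaf1, so they do not settle whether 1:982 lacks any residues. It was treated here as the unmutated form. The title of the deletion samples names an HA tag, while their source label does not. Within NuA4, Epl1 holds the catalytic module, and Eaf1 is a scaffold on which the other subunits assemble. Plate cultures were collected at mid-log phase. Their medium is not given in the sources used here. The supply of methionine and sulphate is therefore not known. The strain was labelled with Cy3 in replicate a and with Cy5 in replicate b. The labels do not say that the replicates came from separate cultures, so a p-value reflects just the spread among these arrays, and that spread may be technical. The label of the RNA isolation was the same for 9 strain samples and differed for replicate b of Epl1 1:380.

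Sulphate enters the cell through permeases, is activated with ATP, and is reduced to sulphite and then to sulphide. Sulphide is joined to O-acetylhomoserine to give homocysteine, which is either methylated to methionine or converted through cystathionine to cysteine. Methionine is activated to S-adenosylmethionine, the methyl donor of the cell, and the methylation product returns to homocysteine. In yeast many, though not all, of the listed genes are known as a regulon of the activator Met4. Met4 binds DNA through Cbf1, Met31 and Met32 with Met28 as a cofactor. It is held back by the ubiquitin ligase subunit Met30 when sulphur amino acids are plentiful.

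A level below is the log2 ratio of a strain over the pool, and a difference is the log2 level of a mutant minus that of its control. Both are set against the bulk of the genes on the array. EAF1 read -1.97 and -2.14 against the pool in the deletion and 0.70 and 0.56 in Eaf1 1:982, which checks those labels. Every member was measured by 1 reporter with 2 spots. In the strain channel 34 members stood above the local background on all 20 spots, whereas SUL1 did so on 1 of 20 spots and is given no fold. A member is said to have passed, or to have fallen or risen, where its Benjamini-Hochberg adjusted p over all features in limma was under 0.05. It was called where its fold also exceeded 1.7. Unless another setting is named, these words refer to the processing used here, not to the authors' deposited matrix. Precision was limited by the number of arrays. For the members, a difference had a 95% interval of 0.22 to either side in the median.

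In both Epl1 truncations MET17, SAM2 and MMP1 were called lower than in tagged Epl1, and no member was called higher. MET17 makes homocysteine from sulphide, SAM2 makes S-adenosylmethionine, and MMP1 imports S-methylmethionine. In Epl1 1:380 these 3 of 35 members were called lower, where 1.08% of all features were called lower and 2.41% higher. In Epl1 1:485 the 3 of 35 compare with 0.690% of all features called lower and 1.85% called higher. In the eaf1 deletion 0 members were called against Eaf1 1:982 by limma, where 2.56% of all features were called in either direction. There 11 of 35 members had an unadjusted p under 0.05 by limma, as did 1631 of 6377 features.

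Without the fold limit, more members passed, and every member that passed in these 3 comparisons was lower in the mutant. In Epl1 1:380 13 of 35 members fell, where 8.59% of all features fell. In Epl1 1:485 12 of 35 fell, where 7.17% of all features fell. In the eaf1 deletion 6 of 35 fell, where 4.94% of all features fell. The median difference of the members was -0.28 in each truncation and -0.18 in the deletion, and the median over all features was 0.00 in each. When arrays were centred on added control RNA instead, these member medians turned to 0.02, 0.12 and 0.24, while the median over all features moved to 0.34, 0.41 and 0.41. Relative to that shift the members lay at -0.32, -0.30 and -0.17. The submitters' design text states that their added RNA showed no global shift in mRNA and that they scaled to total mRNA. The direction of the group is stated here relative to the bulk of the RNAs on the array.

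**Figure D1:**
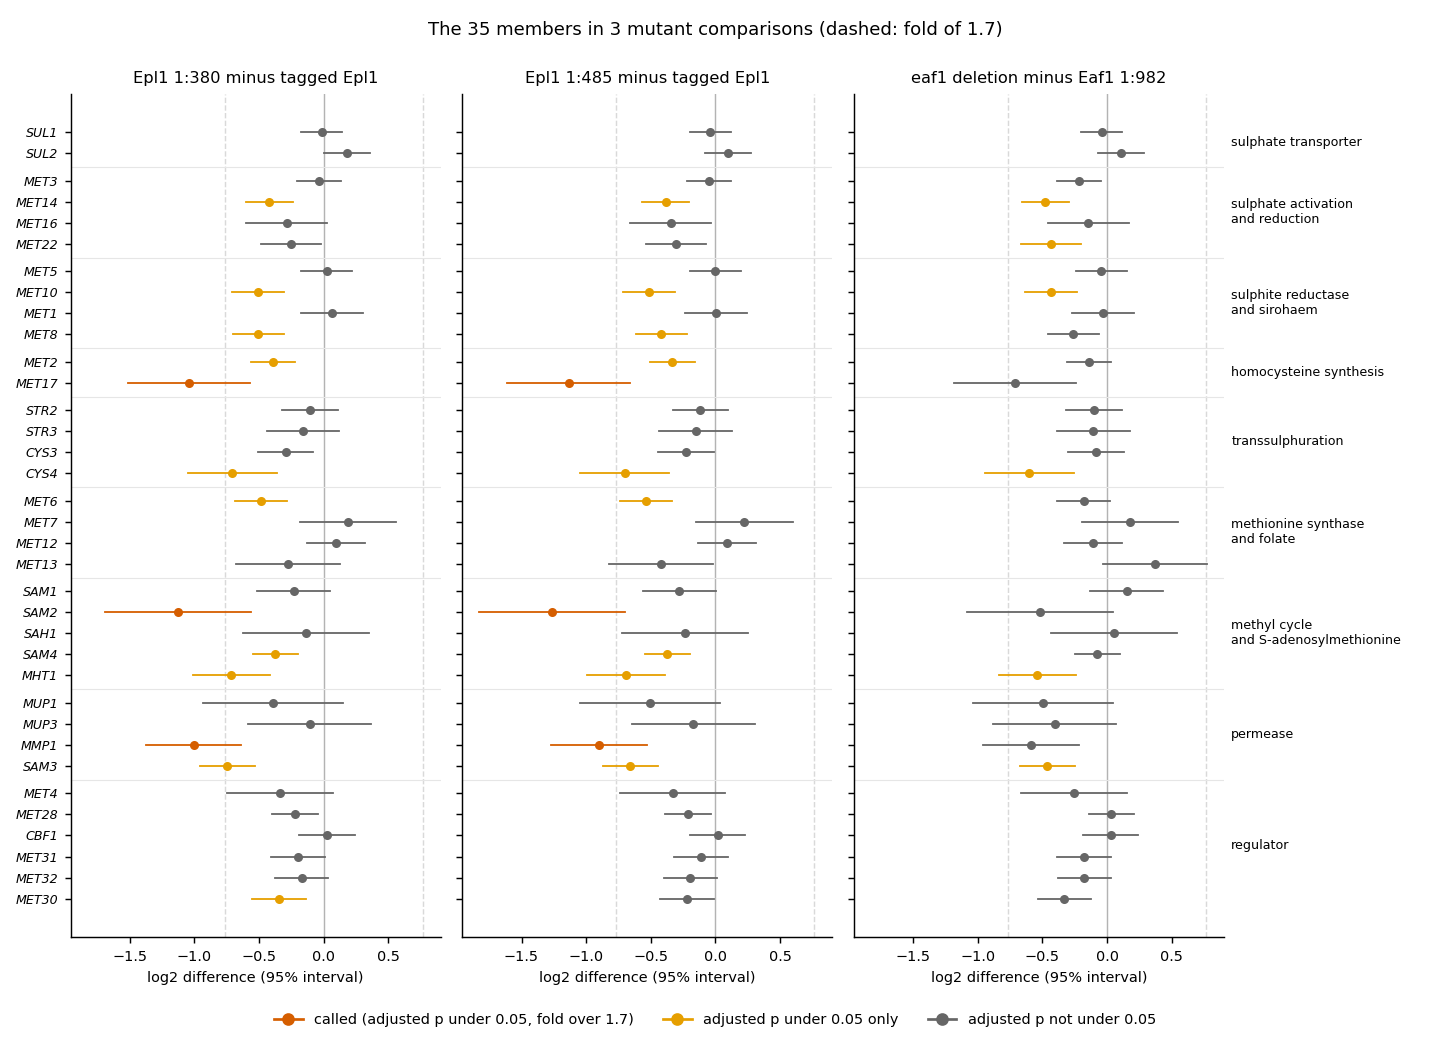
Log2 difference and 95% interval of the 35 members, ordered by role, in the 3 comparisons of a mutant with its control strain (2 arrays per strain). MET17, SAM2 and MMP1 lie beyond the dashed fold of 1.7 in both truncations, and no member is called in the deletion; centred on added control RNA, no member is called in any of the 3.

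The array values were also compared without a test. Both arrays of Epl1 1:380 lay below both arrays of tagged Epl1 for 23 of 35 members, where 28.2% of all features did so. For Epl1 1:485 this held for 25 of 35 members, where 27.0% of all features did so, and for 24 of 34 without SUL1, which was not measurable. For the eaf1 deletion against Eaf1 1:982 it held for 20 of 35 members, where 26.3% of all features did so. The truncation comparisons share the tagged Epl1 arrays, so they are not independent of each other. The control strains were also apart in this tally, since both arrays of Eaf1 1:982 lay above both of tagged Epl1 for 11 of 35 members and below for 1, where 7.65% of all features lay above and 7.82% below. The 11 were MET3, MET14, MET5, MET10, MET2, STR3, CYS3, MET6, SAM3, MET28 and MET32.

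The letters a and b stand for opposite dye orientations. From a to b, 18 of 35 members moved in the same direction in all 5 strains, as did 51.7% of all features, and the fit above counts such a shift as spread. With the letter as a replicate block and no fold limit, 21 of 35 members fell and 1 rose in Epl1 1:380. There 22.8% of all features fell and 23.7% rose. In Epl1 1:485 23 fell and 1 rose, where 22.1% of all features fell and 22.2% rose. In the deletion 15 fell and 0 rose, where 18.0% of all features fell and 19.3% rose. The members that rose with the block were SUL2 in Epl1 1:380 and MET7 in Epl1 1:485. With the fold limit, the block left the counts in these comparisons at 3, 3 and 0.

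The calls of MET17 and SAM2 in both truncations, and that of MMP1 in Epl1 1:485, were lost without certain arrays. Without replicate b of tagged Epl1, 1 member was called in Epl1 1:380, MMP1, and 0 in Epl1 1:485. MET17 then differed by -0.83 and -0.93 and SAM2 by -1.19 and -1.33, with adjusted p from 0.0573 to 0.0720. MMP1 differed by -0.73 in Epl1 1:485 without that array (adjusted p = 0.0622). Without replicate a of tagged Epl1, SAM2 lost its call in both truncations (adjusted p = 0.0798 and 0.0654). MET17 lost its call without replicate a of either truncation (adjusted p = 0.0731 and 0.0541), and SAM2 without replicate b (adjusted p = 0.0933 and 0.0683). In Epl1 1:380 MMP1 kept its call without each of these arrays in turn. Without replicate b of Epl1 1:380, the array with the other RNA isolation label, 4 members were called in that strain.

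Some members lay lower on each of the 6 mutant arrays than on any of the 4 arrays of tagged Epl1 and Eaf1 1:982. This grouping was made after the values were seen. It held for 12 of 35 members, where 12.6% of all features showed the same. They were MET14 and MET22 of sulphate activation, MET10 and MET8 of sulphite reduction, MET17, CYS4, SAM2, MHT1, MMP1, SAM3, and the regulators MET31 and MET30.

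Without the block, no sulphate permease passed in any of the 3 mutants. SUL2, the measurable sulphate permease of the list (chromosome XII), differed by 0.18 ± 0.08 (SE, n = 2 arrays per strain) in Epl1 1:380, 0.10 in Epl1 1:485 and 0.11 in the deletion. With the block, the difference in Epl1 1:380 passed (adjusted p = 0.0352). It also passed without a block in the authors' deposited matrix (adjusted p = 0.0313). In activation and reduction, MET14, the adenylylsulphate kinase, fell in all 3 mutants. Its differences were -0.42 ± 0.08 in Epl1 1:380 (adjusted p = 0.00940), -0.38 in Epl1 1:485 and -0.48 in the deletion (adjusted p = 0.00764). MET3, the ATP sulphurylase of the preceding step, differed by only -0.04 and -0.05 in the truncations and by -0.21 in the deletion, where it passed with the block only (adjusted p = 0.0198). MET22, a nucleotide phosphatase that clears the by-product of sulphate reduction, fell by 0.43 in the deletion (adjusted p = 0.0299). It differed by -0.25 and -0.31 in the truncations, which passed with the block only (adjusted p = 0.0272 and 0.0114). MET16, the reductase that yields sulphite, differed by -0.29, -0.35 and -0.15, and its differences in the truncations passed with the block only (adjusted p = 0.00483 and 0.00191). In the authors' deposited matrix the truncation differences of MET16 passed without a block (adjusted p = 0.01355 and 0.01055). Those of MET22 did so as well (adjusted p = 0.0227 and 0.0216), while MET3 passed in no mutant there. Centred on added control RNA, MET16 read 0.13, 0.12 and 0.29, and MET22 read 0.10, 0.12 and -0.07. The direction of MET16, and that of MET22 in the truncations, thus depends on the scaling.

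Of the sulphite reductase subunits, MET10 fell in all 3 mutants. MET10 (YFR030W, chromosome VI), the alpha subunit, read 0.05 and 0.02 against the pool in tagged Epl1 and 0.30 and 0.15 in Eaf1 1:982. It read -0.48 and -0.46 in Epl1 1:380, -0.42 and -0.54 in Epl1 1:485, and -0.15 and -0.28 in the deletion. All mutant arrays were thus below all control arrays, with the truncations lowest. The MET10 differences were -0.51 ± 0.09 (adjusted p = 0.00637), -0.52 ± 0.09 (adjusted p = 0.00723) and -0.44 ± 0.09 (adjusted p = 0.0169). MET5, the beta subunit, differed by 0.02 in Epl1 1:380 and -0.04 in the deletion, by less in Epl1 1:485, and passed in none. MET8 and MET1 make the sirohaem cofactor of this enzyme. MET8 fell by 0.51 in Epl1 1:380 and by 0.42 in Epl1 1:485. In the deletion MET8 differed by -0.26, which passed with the block only (adjusted p = 0.0154). In the authors' deposited matrix that difference was -0.38 and passed without a block (adjusted p = 0.00221). MET1 differed by 0.06, 0.01 and -0.03, which did not pass. When arrays were centred on added control RNA, MET8 turned to 0.08 in Epl1 1:485 and 0.24 in the deletion. Whether MET10 and MET5, or MET8 and MET1, differ from each other was not tested.

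In homocysteine synthesis, MET17 and MET2 fell in both truncations. MET17 (YLR303W, chromosome XII), the sulphhydrylase, read -0.20 and 0.22 in tagged Epl1 and 0.13 and 0.44 in Eaf1 1:982. It read -1.21 and -0.86 in Epl1 1:380, -1.33 and -0.92 in Epl1 1:485, and -0.56 and -0.31 in the deletion. The b array was higher than the a array in each strain, and the mutant arrays did not reach the control arrays. MET17 was 2.06-fold lower in Epl1 1:380 (log2 difference -1.04 ± 0.21, adjusted p = 0.0112) and 2.20-fold lower in Epl1 1:485 (-1.14 ± 0.21, adjusted p = 0.00970). In the deletion its difference from Eaf1 1:982 was -0.72 ± 0.21, which did not pass (adjusted p = 0.0627). With the replicate block the same difference passed (adjusted p = 1.92e-05) but stayed under the fold limit. In the authors' deposited matrix it passed without a block, at -0.68 (adjusted p = 0.00148), again under the fold limit. Median centring in place of loess ended the call of MET17 in both truncations, at -1.23 and -1.31 (adjusted p = 0.184 and 0.186). MET2, the homoserine acetyltransferase that supplies the other substrate of Met17, fell by 0.39 and 0.33 in the truncations. Centred on added control RNA, MET2 read 0.04 and 0.20 in those comparisons, so its direction depends on the scaling. In the deletion MET2 differed by -0.14, which did not pass.

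**Figure D2:**
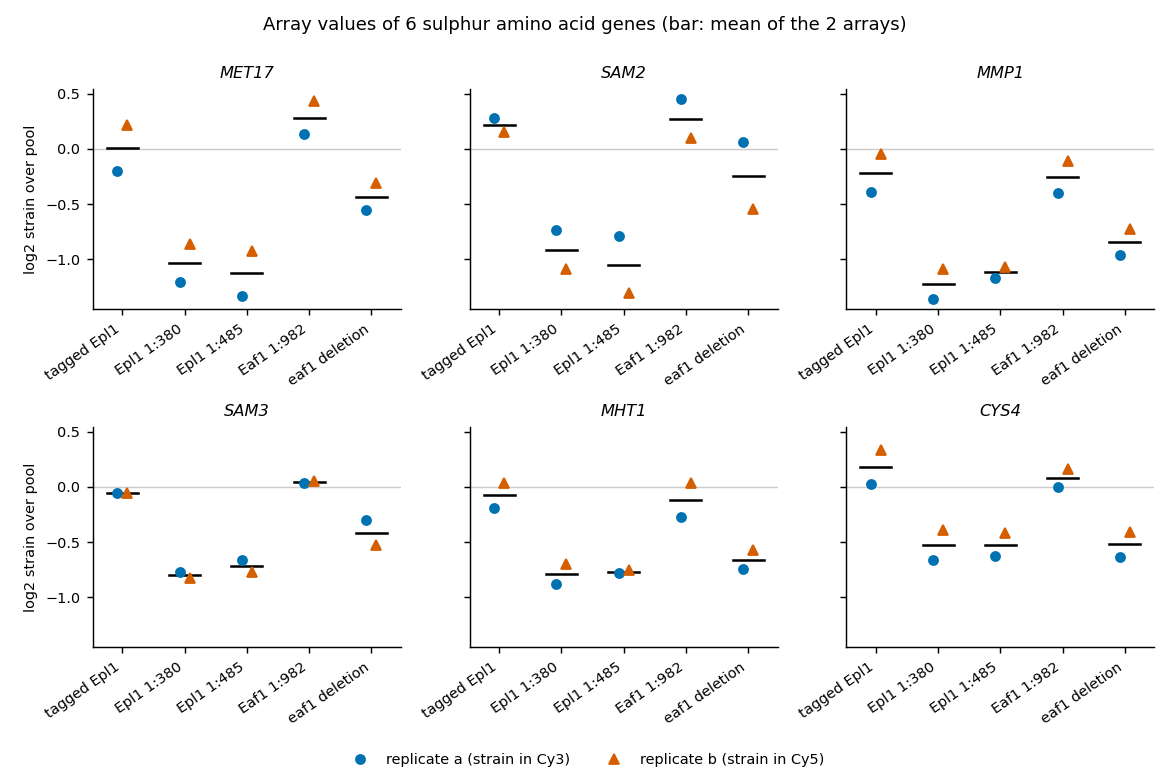
Log2 level against the pool of 6 members on each of the 10 arrays, by strain (circles replicate a, triangles replicate b, bars their mean). For each of the 6 genes, every array of Epl1 1:380, Epl1 1:485 and the eaf1 deletion lies below every array of tagged Epl1 and Eaf1 1:982. All 6 belong to the 12 of 35 members with this pattern, and members without it are not shown.

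Of the 4 transsulphuration genes, CYS4 fell in all 3 mutants. This gene (YGR155W, chromosome VII), the cystathionine beta-synthase that commits homocysteine to cysteine, read 0.02 and 0.34 in tagged Epl1, and -0.0018 and 0.16 in Eaf1 1:982. It read -0.66 and -0.39 in Epl1 1:380, -0.62 and -0.42 in Epl1 1:485, and -0.64 and -0.41 in the deletion. Its differences were -0.71 ± 0.15 (adjusted p = 0.0145), -0.70 ± 0.15 (adjusted p = 0.0177) and -0.60 ± 0.15 (adjusted p = 0.0379). In the authors' deposited matrix the falls of CYS4 in the truncations were smaller, at -0.40 and -0.32, and that in the deletion was -0.50, so which mutant is lowest depends on the processing. CYS3, the cystathionine gamma-lyase of the next step, differed by -0.30, -0.23 and -0.09, and its differences in the truncations passed with the block only (adjusted p = 0.00718 and 0.0273). STR2 and STR3, which run the route from cysteine back to homocysteine, differed by -0.10 to -0.16 and did not pass. In the authors' deposited matrix STR2 passed in both truncations, at -0.17 and -0.19 (adjusted p = 0.0322 and 0.0197). It did not pass there in the deletion (adjusted p = 0.355). Without a block, CYS3 passed in that matrix in Epl1 1:380 only (adjusted p = 0.0357), and STR3 in none.

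In methionine synthesis, MET6 fell in both truncations. MET6 (YER091C, chromosome V), the methionine synthase, read 0.28 and 0.30 in tagged Epl1, and -0.26 and -0.13 in Epl1 1:380. It read -0.26 and -0.24 in Epl1 1:485, 0.38 and 0.58 in Eaf1 1:982, and 0.29 and 0.30 in the deletion. The truncation arrays were below zero and all others above it. MET6 fell by 0.49 ± 0.09 in Epl1 1:380 (adjusted p = 0.00791) and by 0.54 ± 0.09 in Epl1 1:485 (adjusted p = 0.00640). In the deletion its difference was -0.18 ± 0.09 (adjusted p = 0.247). The test of the truncation effect against the deletion effect gave -0.31 for Epl1 1:380 and -0.36 for Epl1 1:485, and neither passed (adjusted p = 0.501 and 0.430).

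MET13 (YGL125W, chromosome VII) encodes the methylenetetrahydrofolate reductase that supplies the methyl group to Met6. Its levels were 0.08 and 0.37 in tagged Epl1, -0.22 and 0.11 in Epl1 1:380, and -0.36 and -0.04 in Epl1 1:485. They were 0.22 and 0.26 in Eaf1 1:982 and 0.80 and 0.43 in the deletion, where both arrays lay above every other array. In the authors' deposited matrix the deletion arrays read 0.83 and 0.24 and overlapped those of Eaf1 1:982, at 0.32 and 0.15. MET13 differed by -0.28 ± 0.17 in Epl1 1:380, -0.42 ± 0.17 in Epl1 1:485 and 0.37 ± 0.17 in the deletion, and of these that in Epl1 1:485 passed with the block only (adjusted p = 0.0332). MET12, the other reductase of this step, and MET7, which adds glutamates to folate, differed by -0.11 to 0.22 and passed in none without the block. With the block, MET7 passed in Epl1 1:485 only (adjusted p = 0.0491), and MET12 passed in none.

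Of the S-adenosylmethionine synthetase genes, SAM2 was called lower in both truncations. SAM2 (YDR502C, chromosome IV) read 0.28 and 0.15 in tagged Epl1, -0.74 and -1.09 in Epl1 1:380, and -0.79 and -1.31 in Epl1 1:485. It read 0.45 and 0.10 in Eaf1 1:982 and 0.06 and -0.55 in the deletion. The truncation arrays were below all other arrays, and the deletion arrays lay between them and the controls. SAM2 was 2.18-fold lower in Epl1 1:380 (-1.13 ± 0.24, adjusted p = 0.0165) and 2.40-fold lower in Epl1 1:485 (-1.26 ± 0.24, adjusted p = 0.0126). In the deletion it differed by -0.52 ± 0.24, which did not pass (adjusted p = 0.231) except with the block (adjusted p = 0.00214). In the authors' deposited matrix that difference was -0.63 and passed without a block (adjusted p = 0.00694). SAM1, the other synthetase gene, differed by -0.23 ± 0.12, -0.28 ± 0.12 and 0.15 ± 0.12, and its differences in the truncations passed with the block only (adjusted p = 0.0269 and 0.0115). In the authors' deposited matrix SAM1 differed by 0.0046 in Epl1 1:380 and -0.06 in Epl1 1:485, so its direction depends on the processing. SAM1 and SAM2 are near-identical paralogs, and how far their reporters separate them was not tested. SAH1, which splits S-adenosylhomocysteine, differed by -0.14, -0.24 and 0.05, and passed in Epl1 1:485 with the block only (adjusted p = 0.0483). These values turned sign in the authors' deposited matrix, to 0.02, 0.12 and -0.07.

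**Figure D3:**
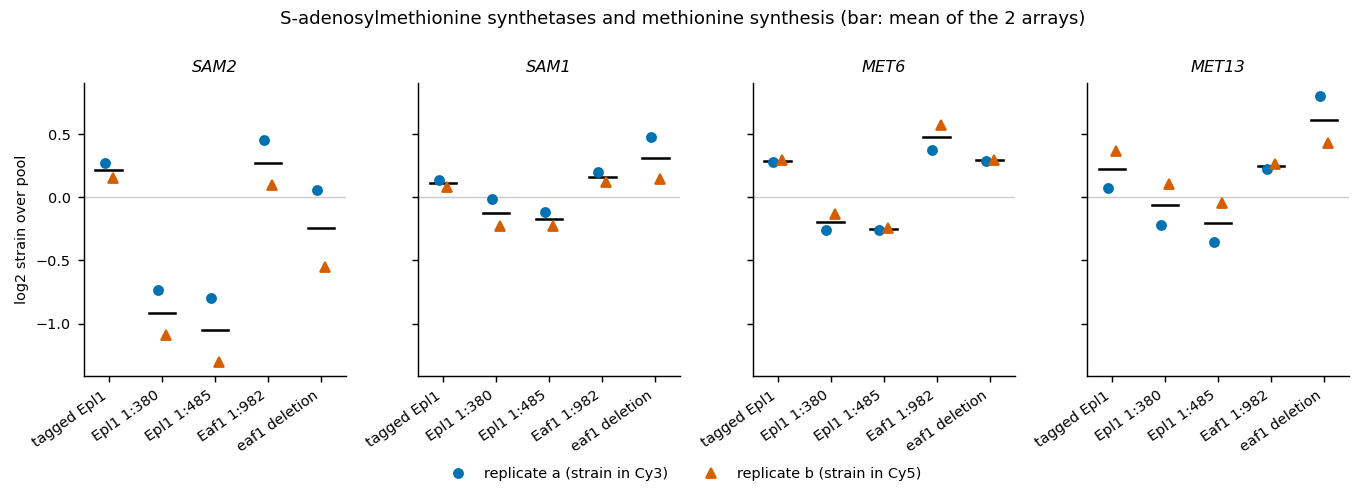
Log2 level against the pool of SAM2, SAM1, MET6 and MET13 on each array, by strain (circles replicate a, triangles replicate b, bars their mean). By mean, the truncations are lower than the other 3 strains for all 4 genes, though not for SAM1 in the authors' deposited matrix, and the deletion arrays of MET13, at 0.80 and 0.43, are the highest of that gene in this processing.

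The genes that bring in and use S-methylmethionine and S-adenosylmethionine lie in neighbouring pairs, MHT1 beside MMP1 on chromosome XII and SAM4 beside SAM3 on chromosome XVI. MMP1 (YLL061W) read -0.39 and -0.04 in tagged Epl1, -1.36 and -1.09 in Epl1 1:380, and -1.17 and -1.07 in Epl1 1:485. It read -0.40 and -0.11 in Eaf1 1:982 and -0.96 and -0.73 in the deletion. The strains fell in the order of controls, deletion and truncations, with no overlap between these. MMP1 was 2.01-fold lower in Epl1 1:380 (-1.01 ± 0.16, adjusted p = 0.00480) and 1.87-fold lower in Epl1 1:485 (-0.90 ± 0.16, adjusted p = 0.00923). Its difference in the deletion was -0.59 ± 0.16 (adjusted p = 0.0541), and it passed with the replicate block (adjusted p = 0.000107). It also passed without a block in the authors' deposited matrix (adjusted p = 0.00568). MMP1 lay in the dimmest 25% of features.

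MHT1, the methyltransferase that passes the methyl group of S-methylmethionine to homocysteine, fell in all 3 mutants, by 0.71, 0.69 and 0.54. SAM3, the S-adenosylmethionine permease, fell in all 3 as well, by 0.75 ± 0.09 (adjusted p = 0.00168), 0.66 ± 0.09 (adjusted p = 0.00363) and 0.46 ± 0.09 (adjusted p = 0.0167). Its fold in Epl1 1:380, 1.68, lay just under the limit. SAM4, the methyltransferase that uses S-adenosylmethionine, fell by 0.38 and 0.37 in the truncations and differed by -0.07 in the deletion, which did not pass. Its difference in Epl1 1:485 was -0.22 in the authors' deposited matrix and did not pass (adjusted p = 0.0988). The methionine permeases followed in their measured values. MUP1, of high affinity, differed by -0.39, -0.51 and -0.49 and did not pass without the block. With the block all 3 differences passed (adjusted p = 0.0040, 0.00103 and 0.00143). In the authors' deposited matrix they passed without a block, at -0.28, -0.37 and -0.41 (adjusted p = 0.0132, 0.003885 and 0.00249). MUP3, of low affinity, differed by -0.11, -0.17 and -0.41, and passed in the deletion with the block only (adjusted p = 0.00179). In the authors' deposited matrix MUP3 passed in the deletion without a block (adjusted p = 0.0071).

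None of the 6 regulators was called. In the processing used here, MET30 was the 1 that passed without the block, in Epl1 1:380. MET4 (chromosome XIV), the activator, read 0.08 and -0.21 in tagged Epl1 and 0.06 and -0.19 in Eaf1 1:982. It read -0.25 and -0.56 in Epl1 1:380, -0.22 and -0.57 in Epl1 1:485, and -0.18 and -0.46 in the deletion. MET4 was lower in b than in a in each strain and, within each letter, lower in all mutants than in both controls. Its differences of -0.34, -0.33 and -0.26 (SE 0.18) did not pass in the fit above (adjusted p = 0.236, 0.257 and 0.429). They passed with the replicate block (adjusted p = 0.000848, 0.00109 and 0.00578). In the authors' deposited matrix they passed without a block, at -0.39, -0.38 and -0.19 (adjusted p = 0.000423, 0.00063 and 0.0223). Centred on added control RNA they read 0.02, 0.09 and 0.12, so the direction of MET4 depends on the scaling.

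MET30 (chromosome IX), the F-box subunit that restrains Met4, read 0.00 and -0.11 in tagged Epl1, -0.33 and -0.47 in Epl1 1:380, and -0.31 and -0.24 in Epl1 1:485. It read -0.15 and 0.00 in Eaf1 1:982 and -0.39 and -0.42 in the deletion. MET30 fell by 0.35 ± 0.09 in Epl1 1:380 (adjusted p = 0.0325). It differed by -0.22 in Epl1 1:485 and -0.33 in the deletion, which did not pass without the block. Both passed without a block in the authors' deposited matrix (adjusted p = 0.00562 and 0.00732). Centred on added control RNA, MET30 read -0.03, 0.16 and 0.03, so its direction in Epl1 1:485 and the deletion depends on the scaling. MET28 (chromosome IX), the cofactor, read -0.21 on both arrays of tagged Epl1, -0.37 and -0.50 in Epl1 1:380, and -0.41 and -0.44 in Epl1 1:485. It read -0.11 and -0.09 in Eaf1 1:982 and -0.02 and -0.11 in the deletion. The truncations were below the other strains in MET28, with differences of -0.22 and -0.21 that did not pass without the block, against 0.03 in the deletion. In the authors' deposited matrix the MET28 difference in the deletion was 0.16, with its arrays above those of Eaf1 1:982, and did not pass (adjusted p = 0.09855). The MET28 differences in the truncations turned to 0.18 and 0.27 when arrays were centred on added control RNA.

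None of the DNA-binding factors passed without the block. CBF1 (chromosome X) read -0.16 and -0.35 in tagged Epl1, -0.17 and -0.28 in Epl1 1:380, -0.16 and -0.31 in Epl1 1:485, -0.22 and -0.26 in Eaf1 1:982, and -0.21 on both arrays of the deletion. The CBF1 arrays of each truncation overlapped those of tagged Epl1, and its 3 differences were 0.03, 0.02 and 0.03 (SE 0.09), against -0.07, -0.07 and -0.03 in the authors' deposited matrix. MET31 (chromosome XVI) read -0.13 and -0.12 in tagged Epl1, -0.41 and -0.24 in Epl1 1:380, -0.21 and -0.27 in Epl1 1:485, -0.18 and -0.08 in Eaf1 1:982, and -0.38 and -0.24 in the deletion. MET32 (chromosome IV) read -0.04 and -0.01 in tagged Epl1, -0.17 and -0.22 in Epl1 1:380, -0.18 and -0.26 in Epl1 1:485, 0.06 and 0.01 in Eaf1 1:982, and -0.03 and -0.25 in the deletion. The differences of MET31 and MET32 ran from -0.11 to -0.20 in the 3 comparisons and did not pass without the block. With the block, MET31 passed in Epl1 1:380 (adjusted p = 0.0351) and MET32 in Epl1 1:485 (adjusted p = 0.0372). Neither gene passed in the other comparisons. Centred on added control RNA, MET31 read 0.22, 0.36 and 0.26, and MET32 read 0.26, 0.31 and 0.34.

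The truncations were also set against each other, which asks whether the longer fragment of Epl1 leaves these RNAs at another level. By limma 0 members had an unadjusted p under 0.05, against 58 of 6377 features, and 0% of all features were called. No member passed, and the differences ran from -0.13 to 0.14. The intervals bound the largest of these values, such as MET13 at -0.26 to 0.54 and SAM2 at -0.43 to 0.70, and do not show equal levels. The control strains were compared in the same way. Between Eaf1 1:982 and tagged Epl1 the differences ran from -0.10 to 0.27, and 0% of all features were called. By limma 0 members had an unadjusted p under 0.05, against 54 of 6377 features. With the block, 6 members had an unadjusted p under 0.05 there, as did 276 of 6377 features, and 0 members passed. The largest value was that of MET17, 0.27 ± 0.21, with Eaf1 1:982 the higher strain.

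Against the reference pool, whose makeup the labels do not give, the median level of the members was -0.01 in tagged Epl1 and 0.02 in Eaf1 1:982. Of the 35 members, 0 were called in tagged Epl1, with 7 at an unadjusted p under 0.05, where 0.204% of all features were called. In Eaf1 1:982 0 were called, with 3 at an unadjusted p under 0.05, where 0.204% of all features were called as well. That unadjusted limit was met by 762 of 6377 features in tagged Epl1 and by 822 in Eaf1 1:982. MET17, SAM2, MMP1, MHT1 and SAM3 made up the 5 members called lower in Epl1 1:380, where 1.46% of all features were called lower. MET17, SAM2, MMP1 and MHT1 were the 4 called lower in Epl1 1:485, where 1.03% of all features were called lower. In the deletion MMP1 was the 1 member called lower, at -0.84 ± 0.11 (adjusted p = 0.000978), where 1.08% of all features were called lower. The pool comparisons share the pool and leave out its own spread.

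The effect of each truncation, taken against tagged Epl1, was then set against that of the deletion, taken against Eaf1 1:982. By limma 0 members were called for Epl1 1:380, with 5 at an unadjusted p under 0.05, where 0.439% of all features were called. For Epl1 1:485 0 members were called, with 4 at an unadjusted p under 0.05, where 0.157% of all features were called. That unadjusted limit was met by 586 of 6377 features for Epl1 1:380 and by 522 for Epl1 1:485. With the replicate block, SAM2 and MMP1 passed without reaching the fold limit for Epl1 1:380. Their values were -0.61 ± 0.14 (adjusted p = 0.0257) and -0.42 ± 0.10 (adjusted p = 0.0274). These were 2 of 35 members, where 6.98% of all features passed. For Epl1 1:485 the block gave -0.74 ± 0.14 for SAM2 (adjusted p = 0.0122), -0.43 ± 0.11 for SAM1 (adjusted p = 0.0414) and -0.42 ± 0.09 for MET17 (adjusted p = 0.0224). MET13 was called in that comparison with the block, at -0.79 ± 0.20 (adjusted p = 0.0459), where 1.11% of all features were called. With MET13, 4 of 35 members passed for Epl1 1:485, where 5.68% of all features passed. For each of these members the effect was lower in the truncation than in the deletion. In the deletion the differences of SAM1 and MET13 were positive, at 0.15 and 0.37.

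A list of 29 further sulphur genes covered homoserine synthesis, glutathione, thioredoxin and sulphoxide reduction, methionine salvage and the uptake of other sulphur compounds. In this list 6 genes fell in Epl1 1:380, 7 in Epl1 1:485 and 5 in the deletion, where 8.59%, 7.17% and 4.94% of all features fell, and 0 rose without the block. With the block 13, 13 and 9 fell, where 22.8%, 22.1% and 18.0% of all features fell. With it 3 rose in each, where 23.7%, 22.2% and 19.3% of all features rose. Those that rose were GSH2, JLP1 and GCN4 in the truncations and HOM3, TRR1 and GCN4 in the deletion. The medians of the list were -0.08, -0.14 and -0.06. MXR1, which repairs oxidised methionine, was called lower in all 3 mutants. It read -0.20 and -0.34 in tagged Epl1 and -0.08 and -0.29 in Eaf1 1:982, against -1.24 and -1.32 in Epl1 1:380, -1.06 and -1.36 in Epl1 1:485, and -0.996 and -1.08 in the deletion. The MXR1 differences were -1.01 ± 0.12 (adjusted p = 0.00144), -0.94 ± 0.12 (adjusted p = 0.00265) and -0.85 ± 0.12 (adjusted p = 0.00386). OPT1, a transporter of glutathione and peptides, was called lower in both truncations, at -0.90 ± 0.25 (adjusted p = 0.0395) and -0.95 ± 0.25 (adjusted p = 0.0367). It differed by -0.68 in the deletion, which passed with the block only (adjusted p = 0.000137). In the authors' deposited matrix that OPT1 difference passed without a block (adjusted p = 0.00392). ADI1 of the methionine salvage pathway fell by 0.76, 0.77 and 0.69 without exceeding the fold limit. GCN4, the general activator of amino acid synthesis, was picked out after its values were seen. It lay at 0.39, 0.30 and 0.47 (SE 0.19) in the 3 comparisons and passed with the block only (adjusted p = 0.00690, 0.0263 and 0.00319). In the authors' deposited matrix it passed without a block in Epl1 1:485 (adjusted p = 0.0372) and the deletion (adjusted p = 0.0116). It did not pass there in Epl1 1:380 (adjusted p = 0.0573).

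The place of the members below the bulk of the features was compared across ways of processing the arrays. Under 6 of 7 settings the member median was negative in all 3 comparisons, from -0.15 to -0.30. Centring on added control RNA was the exception given above. In that setting 17, 15 and 10 of 35 members lay below zero in Epl1 1:380, Epl1 1:485 and the deletion, while 30, 31 and 28 of 35 lay below the median of all features. Members for which no such value is given above also turned sign there, such as STR2 at 0.14, 0.20 and 0.26. MET17, SAM2 and MMP1 kept negative values there, at -0.92, -1.01 and -0.59 in Epl1 1:380, but none passed. In the authors' deposited matrix, which is corrected for dye bias, the same 3 genes were called in both truncations, and MET17 differed by -1.08 and -1.16.

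**Figure D4:**
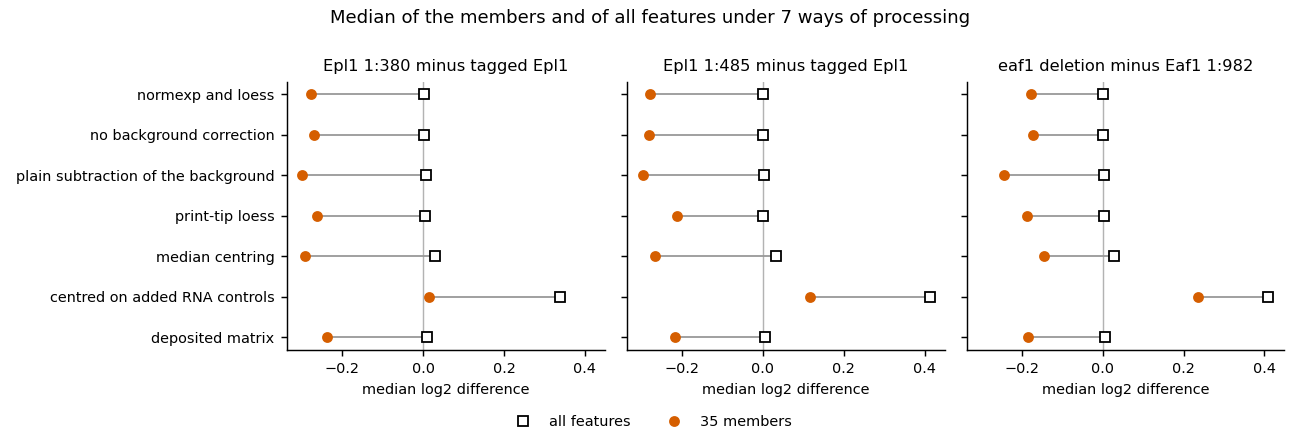
Median log2 difference of the 35 members (circles) and of all 6377 features (squares) in the 3 mutant comparisons under 7 ways of processing. The circles lie to the left of the squares in every row, and centring on added control RNA moves both to the right, with members at 0.02, 0.12 and 0.24.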

How the data were processed

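The members, gene lists and comparisons were chosen with earlier results of these data known. Per the file headers, the raw files hold intensity values per spot in each channel. As an alternative, the deposited matrix was used, where values are log2 (Cy5/Cy3), a direction found by setting them against the intensities; per the deposited protocol notes, the authors used print-tip loess without background subtraction and a correction for dye bias. Here intensities were background-corrected by normexp (offset 50), normalised by loess (span 0.3) on gene spots, turned to strain over pool and averaged per gene. A model with 1 coefficient per strain was fitted over all 10 arrays in limma 3.58.1 (R 4.3.3; lmFit and eBayes). Figures used matplotlib 3.10.9 in Python 3.11.15. Spots counted as above background exceeded it by 2.6 of its standard deviations.

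Array values are given for members called between strains, the regulators, and the 3 members with the largest difference in each comparison between strains. The figures of array values also show MHT1, SAM3 and SAM1, which lie outside this rule. Of the further list, called genes and the 2 largest differences per mutant are named. Deviations of replicates with the same letter correlated between every pair of strains (r from 0.637 to 0.871 over all features), so the letters, which are the dye orientation, were taken to pair the arrays. On simulated data of 6377 features for Epl1 1:380 against tagged Epl1, 92 of 100 changes of 1.2 and 100 of 100 of 2 on the log2 scale were called. That noise was independent between arrays, unlike the real noise. Alternatives were other background corrections, normalizations, filters, limits and samples. No sequences of the genes or reporters were used. Gene names, chromosomes and neighbours came from the R64 table, and the files name no genome build.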

Additional observations from a re-analysis of the deposited data

Results flagged for a closer look

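In the processing used here, MET13 was the 1 member whose arrays moved in opposite directions in Epl1 1:485 and in the eaf1 deletion, each against its own control. In the authors' deposited matrix its deletion arrays, at 0.83 and 0.24, overlapped those of Eaf1 1:982, at 0.32 and 0.15, so the separation does not hold there. In that matrix other members moved in opposite directions without overlap. These were MET12 and MET28 in each truncation and the deletion, and SAM1 in Epl1 1:485 and the deletion. None of their differences passed there. In the processing used here, MET13 differed by -0.42 in Epl1 1:485 and 0.37 in the deletion, and the difference between these effects was -0.79 ± 0.25 (SE). The limma test of that difference had an unadjusted p of 0.0123 and did not pass after adjustment (adjusted p = 0.362). With the replicate block it was called, with the same value and an adjusted p of 0.0459. In each strain but the deletion the b array of MET13 lay above the a array, at 0.43 against 0.80 in the deletion.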

How the results depend on the processing

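The members called numbered 3, 3 and 0 in Epl1 1:380, Epl1 1:485 and the deletion against their controls, and 5, 4 and 1 against the pool. No called value changed sign under any setting. Plain background subtraction gave 5 in Epl1 1:380, 2 in the deletion and 2 in the deletion against the pool. Centring on added control RNA (5 of 14 reporters, those above background and unsaturated on all arrays) gave 0 in both truncations, and against the pool 10 in tagged Epl1, 10 in Epl1 1:380, 16 in Eaf1 1:982 and 6 in the deletion. Leaving out the dimmest 25% of features, which hold MMP1, gave 0 for the deletion against the pool. A fit of only the groups compared, with fewer samples, gave 0 in Epl1 1:485 (adjusted p of MET17, SAM2 and MMP1 from 0.0523 to 0.0681). With no fold limit the counts were 13, 12 and 6, and against the pool 22, 21, 1 for Eaf1 1:982 and 16 for the deletion. Of 6377 features, 1162, 982 and 703 passed likewise, and 2517, 2306, 107 and 2056 against the pool. The replicate block gave 1 for the effect of Epl1 1:485 against that of the deletion, where 1.11% of all features were called, and changed no other count. The replicate block with no fold limit, added after seeing the data, gave 22, 24 and 15, where 46.5%, 44.3% and 37.2% of all features passed. Against the pool it gave 12, 25, 27, 8 and 27 (tagged Epl1, Epl1 1:380, Epl1 1:485, Eaf1 1:982, deletion). There 13.5%, 64.1%, 61.1%, 14.8% and 58.9% of all features passed. For the differences of effects it gave 2 and 4, where 6.98% and 5.68% passed. Leaving out each array in turn gave 1 to 4 in Epl1 1:380, 0 to 4 in Epl1 1:485 and 0 to 2 for the deletion against the pool, where the low count came without replicate a of the deletion and the high one without replicate b. The lone array left is then assumed to vary like the others. The cause of these changes was not tested. Signal over background limited SUL1, which gave no measured difference.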
